A study of Mus musculus with 6 samples.

Results

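The CC chemokine ligands are a family of small secreted proteins, and the 10 genes described here (Ccl2, Ccl3, Ccl4, Ccl5, Ccl6, Ccl7, Ccl9, Ccl17, Ccl22 and Ccl24) were taken by gene name from a table of 56884 genes. Their transcripts were measured by RNA sequencing in mouse neutrophils. The cells were sorted from bone marrow as mature CD101+ Ly6G+ neutrophils and kept in culture outside the animal. In 3 libraries the culture held DKK1 (Dickkopf-1), a secreted protein that blocks Wnt co-receptors, and in 3 others, here called control, it did not. Both groups are cultured cells, and the sources used here give no strain, sex or age of the mice, no dose of DKK1 and no time in culture. The labels do not tie the libraries to separate mice or cultures, and p-values therefore describe a spread between libraries that may be technical.

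CC chemokines share a pair of adjacent cysteines near their start and act through receptors coupled to G proteins on leukocytes. Ccl3, Ccl4 and Ccl5 draw monocytes, T cells and other leukocytes, Ccl3 and Ccl5 act through Ccr1, and Ccl2 and Ccl7 draw monocytes through Ccr2. Ccl6 and Ccl9 are chemokines of myeloid cells in rodents, Ccl17 and Ccl22 draw T cells through Ccr4, and Ccl24 draws eosinophils through Ccr3. Activated neutrophils are a known source of Ccl3 and Ccl4.

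The libraries held 5188116 to 9851961 reads, and 15610 to 16751 genes were detected in each. DKK1 library 2 was the smallest and differed from DKK1 libraries 1 and 3 more than they did from each other (chi-square per degree of freedom of 12.4 and 11.4, against 2.96 between the other two). The transcripts of both sorting markers were close to absent with DKK1. Ly6g had a normalized count of 5.96 ± 1.30 in DKK1 libraries and 1338 ± 72.7 in control libraries (SD, n = 3 each), and Cd101 had 3.53 ± 2.31 in DKK1 and 5098 ± 178 in control. All 10 neutrophil markers examined fell, and their summed level was 3165 to 3806 in DKK1 and 705902 to 731660 in control. Over all tested genes 35.1% were called higher and 36.1% lower. Some counts of calls below include genes that entered the test through 1 group alone. In these, all 3 libraries of that group reached a value of 1 and not all 3 of the other did. Such entry favours, but does not fix, a call with that group higher. Monocyte and macrophage markers, 15 in all, gave 5 rises (1 of them entering so) and 7 falls (4 entering so). Their summed level was 17413 to 18459 in DKK1 and 7931 to 8134 in control. Cd68, the largest part of the DKK1 sum, stood at 10121 ± 286 in DKK1 and 902 ± 43.7 in control. Adgre1 stood at 2828 ± 310.0 in DKK1 and 1106 ± 53.5 in control. Cd14 stood at 2645 ± 605 in DKK1 and 549.7 ± 29.0 in control, and Csf1r at 2073 ± 141 in DKK1 and 2754 ± 41.4 in control. Ly6c2 fell to 30.1 ± 13.9 in DKK1 from 2504 ± 68.4 in control, and Mrc1 to 5.49 ± 4.00 in DKK1 from 45.9 ± 11.8 in control. C1qa had 0 reads in DKK1, C1qb 29, C1qc 28 and Mertk 8, against 60, 71, 70 and 9 in control. Of 8 dendritic cell markers 3 were called higher and 1 lower, all 4 having entered through 1 group alone. Their sum was 42.5 to 110.3 in DKK1 and 42.4 to 50.2 in control. The 11 markers of eosinophils, basophils and mast cells gave 3 rises and 2 lower calls, the 2 lower ones entering through control alone. Their sums were 103 to 273 in DKK1 and 332 to 348 in control. Siglecf held most of the control sum, at 292 ± 8.65 in control and 1.20 ± 1.13 in DKK1. The 3 rises were Mcpt8 (4.70-fold), Cpa3 (5.76-fold) and Ms4a2 (5.84-fold). Prg2, which did not pass, stood at 0, 4.12 and 150 in DKK1 libraries 1 to 3. Of the T and NK cell, B cell and erythroid markers 3, 7 and 5 were called lower, of which 3, 5 and 2 entered through control alone. The share of reads from mitochondrial genes was 0.255% to 0.310% in DKK1 and 0.125% to 0.129% in control. The part of these differences in the results below was not tested. In bulk samples, fewer cells of a type and less RNA per cell cannot be told apart.

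With DKK1 the main CC ligand transcript of the control cells, Ccl6, was 109-fold lower, and Ccl3 and Ccl4 were the most abundant instead. Of the 10 genes 6 rose (Ccl2, Ccl3, Ccl4, Ccl5, Ccl7 and Ccl22), 1 fell (Ccl6), 1 did not pass the test (Ccl9) and 2 were too low to test (Ccl17 and Ccl24). The test was limma on log2(normalized count + 1) over all 16265 genes with a value of at least 1 in at least 3 libraries, with Benjamini-Hochberg adjustment and a threshold of 0.05. Changes were widespread: 35.1% of all tested genes were called higher and 36.1% lower. Ccl7 and Ccl22 entered the test through their DKK1 libraries alone, which favours a call of higher in them. The other 4 that rose had reads in every library. The groups did not overlap for these 6 genes and for Ccl6, as was the case for 36.5% of all tested genes with DKK1 higher and 37.4% with DKK1 lower.

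**Figure D1:**
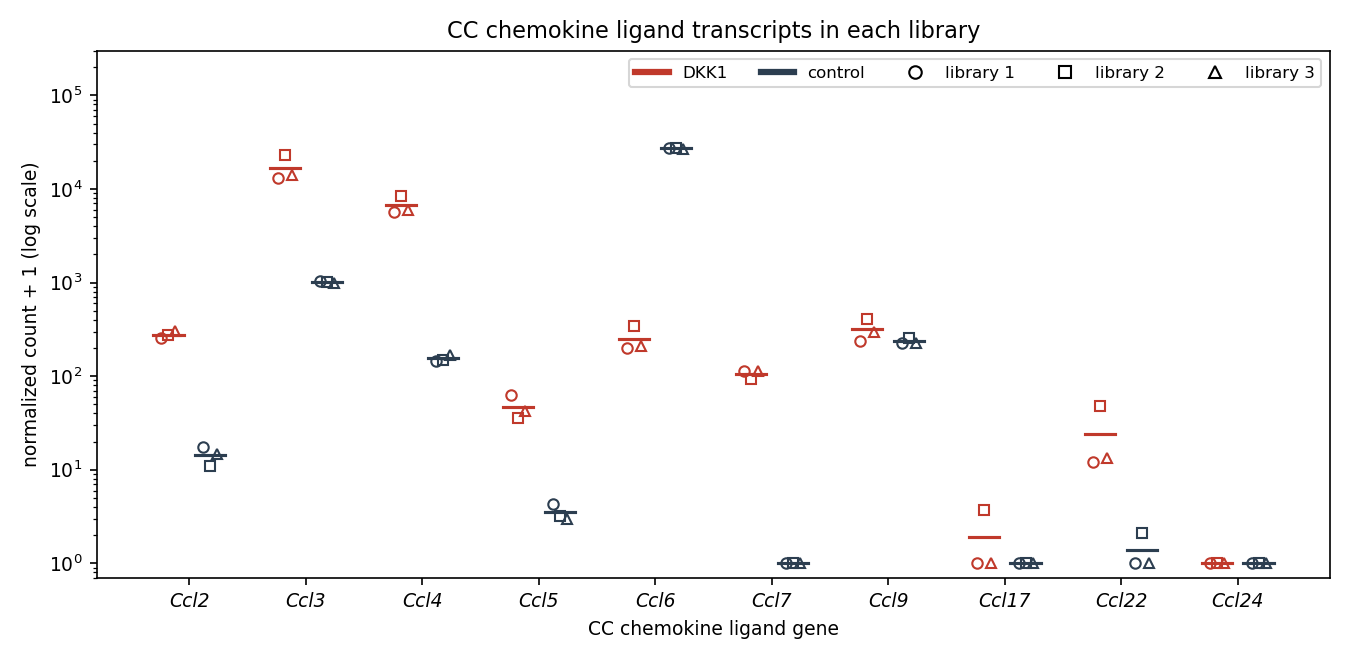
Normalized count + 1 (log scale) of each CC chemokine ligand gene in each library, DKK1 in red and control in dark blue, with a bar at the mean of each group. The 3 DKK1 libraries lie above the control libraries for Ccl2, Ccl3, Ccl4, Ccl5, Ccl7 and Ccl22 and far below them for Ccl6, and the groups overlap for Ccl9.

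The 250 bases before the RefSeq start of Ccl3, Ccl6 and Ccl9 (GRCm38.p6) are shown because these genes lie near each other on the minus strand of chromosome 11 and Ccl3 rose, Ccl6 fell and Ccl9 did not pass the test. Capitals mark letters that match TTNNGNAA (a C/EBP-like motif) on either strand.
Ccl3 (chr11:83649379-83649628, minus strand): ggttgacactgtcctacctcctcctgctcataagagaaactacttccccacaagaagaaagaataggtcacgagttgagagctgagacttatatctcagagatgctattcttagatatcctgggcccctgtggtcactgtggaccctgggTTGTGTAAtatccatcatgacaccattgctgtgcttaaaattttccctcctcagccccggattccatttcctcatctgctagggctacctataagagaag
Ccl6 (chr11:83593088-83593337, minus strand): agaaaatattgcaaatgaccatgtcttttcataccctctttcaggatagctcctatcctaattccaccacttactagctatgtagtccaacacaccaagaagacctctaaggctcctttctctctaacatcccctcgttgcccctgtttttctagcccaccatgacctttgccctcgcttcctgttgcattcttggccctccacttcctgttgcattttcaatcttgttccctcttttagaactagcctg
Ccl9 (chr11:83578637-83578886, minus strand): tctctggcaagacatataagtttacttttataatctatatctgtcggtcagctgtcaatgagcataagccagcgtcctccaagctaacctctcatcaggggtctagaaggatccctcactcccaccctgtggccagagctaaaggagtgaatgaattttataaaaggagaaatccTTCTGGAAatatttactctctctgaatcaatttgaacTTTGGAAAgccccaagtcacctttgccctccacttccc
The Ccl3 window held 1 C/EBP-like match, with 92 bases between it and the first transcribed base. The Ccl6 window held 0 matches. The Ccl9 window held 2 C/EBP-like matches and was the one of the 3 with a TATAAA and with a match to TGANTCA (AP-1), neither overlapping the capitals. Of 32851 windows of the same length in the RefSeq table, 36.8% held the C/EBP-like motif, 6.75% the AP-1 motif and 7.59% TATAAA on the sense strand. Windows for 5 of the 10 genes were found in that table (also Ccl17 and Ccl22). A match of letters is a description and shows no binding.

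Ccl3 and Ccl4, chemokines that activated macrophages and neutrophils secrete, were the most abundant CC ligand transcripts with DKK1. Ccl3 (ENSMUSG00000000982.6) had normalized counts of 13029.9, 22915.5 and 14037 in DKK1 libraries 1 to 3, against 1048, 1002 and 990.1 in control libraries 1 to 3. The means of 16661 ± 5440 in DKK1 and 1013 ± 30.4 in control (SD, n = 3 each) differ 16.4-fold, with a log2 change of 3.99 (SE 0.19, limma adjusted p = 1.56e-07). The lowest DKK1 library stood far above the highest control library, and DKK1 library 2 stood above the other two. Ccl4 (ENSMUSG00000018930.4) had 5706, 8389 and 6008 in DKK1 and 144, 149 and 168 in control. It rose 43.6-fold (log2 change 5.42, SE 0.14, limma adjusted p = 1.64e-09), again with its highest value in DKK1 library 2 and no overlap of the groups. The level of Ccl3 per kilobase of exon was 1.97, 2.35 and 2.01 times that of Ccl4 in DKK1 libraries 1 to 3, against 6.27, 5.81 and 5.06 times in control libraries 1 to 3. This ratio within a library does not depend on how libraries are scaled, and every DKK1 library lay below every control library.

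Ccl6 (ENSMUSG00000018927.4), the leading CC ligand of the control neutrophils, moved the other way. It had normalized counts of 199, 342 and 207 in DKK1, against 27470.3, 27515 and 26635 in control. The mean of 249 ± 80.5 in DKK1 was 109-fold lower than the 27207 ± 496 in control (log2 change -6.81, SE 0.18, limma adjusted p = 2.17e-09). The 3 control libraries lay within a narrow range, and DKK1 library 2 was again the highest of its group. A gene annotated on the opposite strand, E230016K23Rik, overlaps Ccl6 and averaged 17.0 in DKK1 and 178 in control. The strandedness of the counting is not given in the sources used here, so reads from Ccl6 and this gene cannot be told apart.

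Ccl9 (ENSMUSG00000019122.9), the neighbour of Ccl6 and another rodent ligand of Ccr1, was the one tested ligand gene that did not pass. Its normalized counts were 239, 411 and 293 in DKK1 and 224, 252 and 225 in control. The groups overlapped (log2 change 0.39, SE 0.18, limma adjusted p = 0.0796). The call depended on scaling, since the log2 change was 0.92 with libraries scaled to equal totals (limma adjusted p = 0.000696) and 0.53 with quantile normalization (limma adjusted p = 0.0278). It also passed without DKK1 library 1 (log2 change 0.57, limma adjusted p = 0.0120), while without DKK1 library 2 the log2 change was 0.18. Per kilobase of exon Ccl6 stood at 1.41, 1.41 and 1.20 times Ccl9 in DKK1 libraries 1 to 3 and at 208, 185 and 201 times Ccl9 in control libraries 1 to 3. The 2 transcripts share at most 25 identical bases in a row in GENCODE M21, the longest run between any of the 10 genes and another CC ligand gene. No source used here gives the read length.

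The monocyte attractants Ccl2 and Ccl7, next to each other on chromosome 11, rose to middling levels. Ccl2 (ENSMUSG00000035385.6) had 255, 277 and 299.7 in DKK1 and 16.5, 10.1 and 13.8 in control, which is 20.6-fold (log2 change 4.29, SE 0.22, limma adjusted p = 1.27e-07). With DKK1 the 3 libraries were close together, and library 2 did not stand out. Gm17268, annotated on the opposite strand over Ccl2, was not analysed here. Ccl7 (ENSMUSG00000035373.3) had 113, 92.0 and 112 in DKK1, from 355 reads, and 0 reads in all 3 control libraries. Against a floor of 3 reads over the control group it was at least 98.9-fold higher (limma adjusted p = 1.76e-07). A fitted log2 change of Ccl7 depends on the pseudocount and is not given.

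Ccl5 (ENSMUSG00000035042.3), a ligand of Ccr1 and Ccr3 best known from T cells, was low in both groups. It had 62.6, 34.3 and 41.6 in DKK1 and 3.29, 2.23 and 1.97 in control, from 160 reads in DKK1 and 7 in control. The means of 46.2 ± 14.7 in DKK1 and 2.50 ± 0.70 in control differ 18.5-fold (log2 change 3.73, SE 0.39, limma adjusted p = 2.01e-05). DKK1 library 2 was here the lowest of its group. The T cell genes Cd3e and Trac had 1 and 2 reads in all DKK1 libraries together and Cd3g had 0, and the summed level of the 12 T and NK markers was 2.75 to 5.96 in DKK1 and 56.2 to 91.1 in control.

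Of the Ccr4 ligands, which dendritic cells and macrophages are known to make, Ccl22 was detected at a low level and Ccl17 was at the limit of detection. Ccl22 (ENSMUSG00000031779.4) had 11.2, 46.7 and 12.2 in DKK1, from 64 reads, and 0, 1.12 and 0 in control, from 1 read. The ratio of 54.8 has a 95% exact counting interval of 9.49 to 2198 (limma adjusted p = 0.000459). DKK1 library 2 alone was at 3.99 times the mean of DKK1 libraries 1 and 3. The log2 change was 3.94 in all and 3.31 without that library, a difference of more than 1.5 times in the fold. The log2 change of Ccl22 also depended on the pseudocount, at 6.34 with 0.1 and 1.53 with 10. Ccl17 (ENSMUSG00000031780.3) had 2 reads in DKK1 library 2 and 0 in every other library. Ccl24 (ENSMUSG00000004814.11), the eosinophil attractant, had 0 reads in all 6 libraries, where 3 reads would be a normalized count of 2.24 to 4.12 in DKK1 libraries and 2.96 to 3.35 in control libraries. A difference in Ccl17 or Ccl24 was not detectable at this depth. Intervals and floors cover counting error only, since the reads carry no molecular identifiers.

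Levels of different genes were set side by side as normalized counts per kilobase of annotated exon. With DKK1 the order was Ccl3 (21750.5 ± 7102), Ccl4 (10153 ± 2227), Ccl2 (244 ± 19.7), Ccl6 (139 ± 44.8), Ccl7 (132 ± 14.5), Ccl9 (103 ± 28.8), Ccl5 (48.1 ± 15.3) and Ccl22 (10.1 ± 8.69; SD, n = 3). Ccl6, Ccl7 and Ccl9 overlapped their neighbours in this order, and the other neighbours did not overlap. In control the order was Ccl6 (15157 ± 276), Ccl3 (1323 ± 39.6), Ccl4 (233 ± 19.8), Ccl9 (76.8 ± 5.34), Ccl2 (11.8 ± 2.83) and Ccl5 (2.60 ± 0.73), with no overlap between neighbours. Ccl3 thus stood above Ccl4 in both groups, and Ccl6 fell behind both of them and Ccl2 with DKK1.

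Ccl3 and Ccl4 made up nearly all of the family's summed level with DKK1 and Ccl6 made up most of it in control. The size and the direction of the difference in the family's total varied with the scale. All CC ligand genes in the table together took 0.303%, 0.458% and 0.322% of all reads in DKK1 libraries 1 to 3, against 0.296%, 0.298% and 0.289% in control libraries 1 to 3. The groups did not overlap, but DKK1 libraries 1 and 3 lay close to the control libraries. Per kilobase of exon the summed level was 32602.5 ± 9389 in DKK1 (26302 to 43393) and 16807 ± 286 in control (16478 to 16984), again without overlap. The summed normalized counts, not divided by length, were 19778, 32651 and 21142 in DKK1 libraries 1 to 3 and 28932, 28956 and 28060 in control libraries 1 to 3, so that DKK1 libraries 1 and 3 lay below the control libraries and DKK1 library 2 above them. Of the summed level per kilobase, Ccl3 made up 66.3% ± 2.33 in DKK1 and 7.87% ± 0.17 in control (SD, n = 3 each). Ccl4 made up 31.5% ± 1.94 in DKK1 and 1.39% ± 0.14 in control. Ccl6 made up 0.423% ± 0.015 in DKK1 and 90.2% ± 0.18 in control. Shares within a library are free of library scaling. The exact two-sided permutation test gave p = 0.1 for each of the 6 sums and shares compared (0.1 after Benjamini-Hochberg adjustment), the smallest that 3 against 3 libraries allow.

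**Figure D2:**
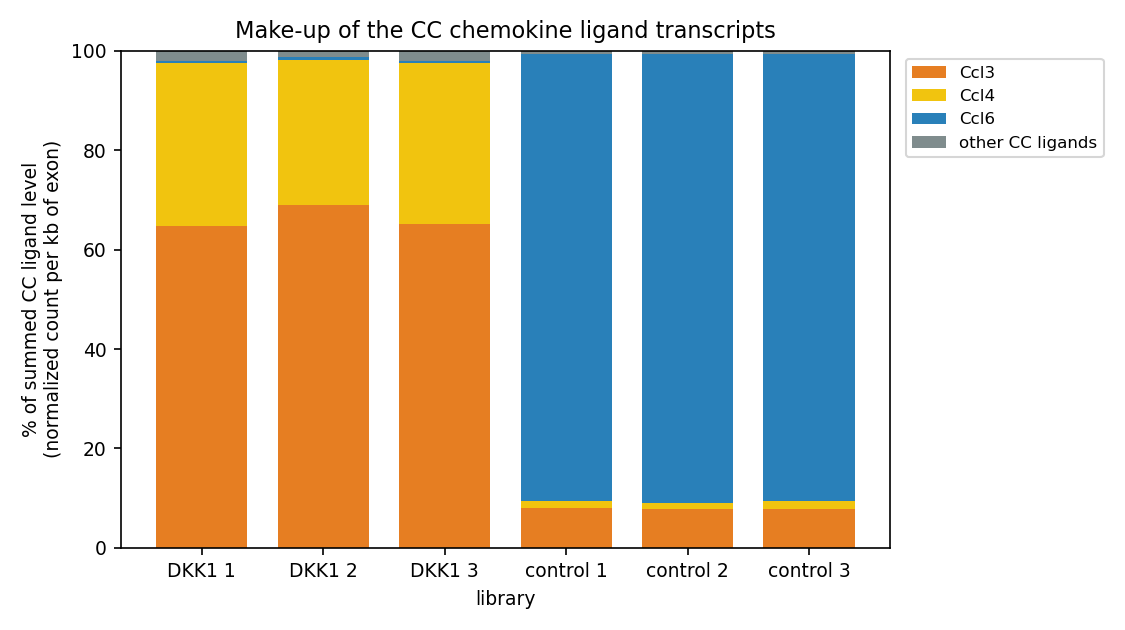
Share of each gene in the summed level of all CC chemokine ligand genes, in percent of normalized counts per kilobase of exon, for the 3 DKK1 libraries and then the 3 control libraries. Ccl3 and Ccl4 fill the DKK1 bars, at 64.7% to 68.9% and 29.3% to 32.9%, and Ccl6 fills the control bars, at 90.1% to 90.4%.

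Some direct neighbours in the genome moved alike (Ccl2 with Ccl7, and Ccl3 with Ccl4) and those around Ccl6 did not. Positions are those of GENCODE M21 on GRCm38 (mm10), found through the deposited gene identifiers with the version left off, and all 10 are protein-coding genes. On chromosome 11 Ccl2 (82035571 to 82037453, plus strand) and Ccl7 (82045712 to 82047525, plus strand) lie 8258 bases apart, and both rose. A second group on the same chromosome runs from Ccl5 (83525778 to 83530518, minus strand) through Ccl9 (83572919 to 83578636, minus strand), Ccl6 (83587882 to 83593087, minus strand) and Ccl3 (83647844 to 83649355, minus strand) to Ccl4 (83662584 to 83664683, plus strand). In that order Ccl5 rose, Ccl9 did not pass, Ccl6 fell and Ccl3 and Ccl4 rose. Ccl9 and Ccl6 lie 9245 bases apart, Ccl6 and Ccl3 54756 bases, and Ccl3 and Ccl4 13228 bases. On chromosome 8 Ccl22 (94745590 to 94751699, plus strand) and Ccl17 (94810453 to 94812036, plus strand) lie 58753 bases apart. Ccl24 lies alone on chromosome 5 (135569937 to 135573049, minus strand).

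**Figure D3:**
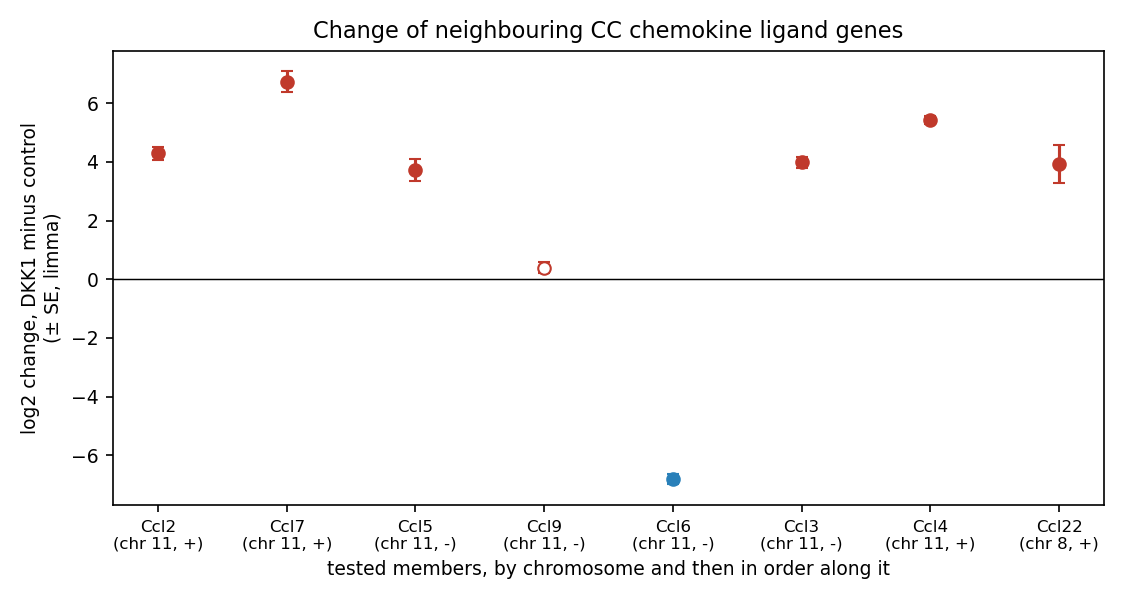
Log2 change (DKK1 minus control, limma, with its standard error) of the 8 tested genes, ordered by chromosome and along it, with the strand under each name and an open circle for a change that did not pass. Ccl6, at -6.81, sits between Ccl9 at 0.39 and Ccl3 at 3.99. The heights of Ccl7 and Ccl22 depend on the pseudocount, which is 1 here.

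Relative to the group's mean, the DKK1 libraries spread more widely than the control libraries for 5 of the 6 genes with more than 3 reads in each group. This was not particular to the ligands. Across the table the chi-square per degree of freedom was 2.96 to 12.4 between DKK1 libraries and 2.15 to 2.21 between control libraries. The exception was Ccl2, with an SD of 8.07% of the mean in DKK1 and 24.0% in control, whereas Ccl6 had 32.3% in DKK1 and 1.82% in control. In control libraries 1 to 3 Ccl2 had only 15, 9 and 14 reads and Ccl5 only 3, 2 and 2. The part of counting error in their spread was not tested. DKK1 library 2 was at 1.69 times the mean of DKK1 libraries 1 and 3 for Ccl3, 1.43 times for Ccl4, 1.69 times for Ccl6, 1.54 times for Ccl9 and 3.99 times for Ccl22. It was at 1.00 times that mean for Ccl2, 0.820 times for Ccl7 and 0.659 times for Ccl5. Over the 6255 tested genes that averaged 100 or more in DKK1 the same ratio had a median of 1.03, with its 5th and 95th percentiles at 0.727 and 1.46, and 6.81% of them reached 1.4. Erythroid markers moved with this library, their sum being 648, 1496 and 300.5 in DKK1 libraries 1 to 3 and 1637 to 1776 in control. Their part in the ligand values was not tested. Without DKK1 library 2, 5 of the 10 genes were higher and 1 lower. Ccl7 then had too few libraries with reads to be tested.

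**Figure D4:**
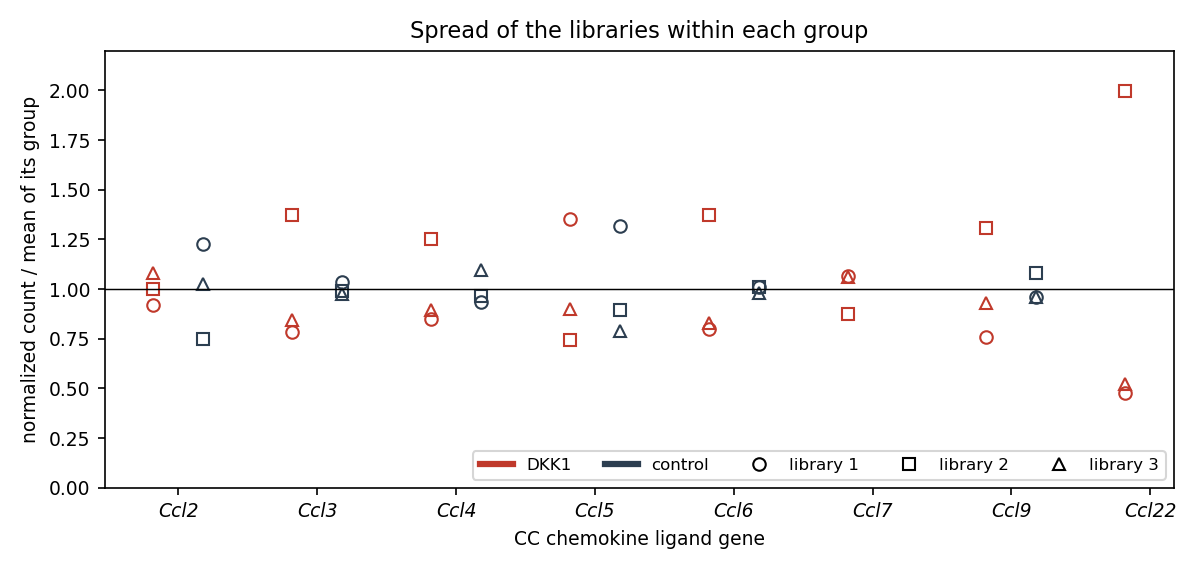
Normalized count of each library divided by the mean of its group, for genes with more than 3 reads in the group, DKK1 in red and control in dark blue. DKK1 library 2 (square) is the highest red symbol for Ccl3, Ccl4, Ccl6, Ccl9 and Ccl22 and the lowest for Ccl5 and Ccl7.

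The genes whose profiles lay nearest to each ligand were found by the Euclidean distance between log2(normalized count + 1) values, centred on each gene's mean, over the 6 libraries. Nearest to Ccl3 were Ifrd1 (distance 0.13), Pim3 (0.26) and Vegfa (0.26), and nearest to Ccl4 were Fmnl2 (0.31), Nol8 (0.36) and Utp20 (0.39). For Ccl2 they were Gsto1, Afg3l2 and Naa50, at 0.21 to 0.39. Ccl6 lay nearest to Ccr1 (0.21), Dgka (0.31) and Ssh2 (0.33), and Ccr1 is itself a CC chemokine receptor gene. Ccl7 lay nearest to Tnip3, Neil2 and Zfp811, at 0.20 to 0.27, and Ccl9 to Clp1, Zcchc9 and Fbxo4, at 0.15 to 0.23. Less close were the neighbours of Ccl5 (Idi1, Bcap29 and H1f8, 0.45 to 0.52) and of Ccl22 (Iars1, Pde4d and Zfp867, 0.82 to 0.91). No CC ligand was among the 3 nearest of another. These distances are set mainly by the difference between the groups and are given as a description.

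Of 14 further CC ligand genes, 1 could be tested. This was Ccl25, known as an attractant of T cells to thymus and gut, which rose 5.52-fold and stood at 141 ± 15.6 in DKK1 and 25.5 ± 0.89 in control (SD, n = 3 each; log2 change 2.41, SE 0.18, limma adjusted p = 2.01e-06). The start of Ccl25 overlaps Elavl1 on the opposite strand, which stood at 636 ± 66.6 in DKK1 and 379 ± 28.8 in control. Reads from that overlap cannot be assigned to 1 of the 2 genes here. Ccl12, Ccl27a and Ccl28 had 3, 1 and 9 reads in DKK1 and 0 in control. Ccl1, Ccl8, Ccl11, Ccl19, Ccl20, Ccl21a, Ccl21b, Ccl26 and Ccl27b had 0 reads in every library, and Ccl21c was not analysed here.

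Among 15 genes of CC chemokine receptors and atypical receptors 11 could be tested. Of these 2 were called higher, 5 lower and 4 did not pass. Of all tested genes 35.1% were called higher and 36.1% lower. Entry through 1 group alone favoured the call of Ccr7 (DKK1) and of 4 of the 5 lower ones (Ccr1l1, Ccr2, Ccr3 and Ccr6, control). Ccr1, a receptor for Ccl3 and Ccl5, fell 105-fold and stood at 159 ± 36.2 in DKK1 and 16749 ± 263 in control. Ccr2, the receptor for Ccl2 and Ccl7, had 1 read in DKK1 and 147 in control, and Ccr3 had 3 in DKK1 and 96 in control. Ccr9, Ccr10 and Ackr4 were among those that did not pass, and Ccr8, Ackr1 and Ackr2 had 0 reads in every library. Ccr4, the receptor of Ccl17 and Ccl22, had 1 read in DKK1 and 0 in control. Those called higher were Ccrl2, a chemerin-binding atypical receptor, at 14278 ± 1825 in DKK1 and 549 ± 27.5 in control, and Ccr7, with 72 reads in DKK1 and 0 in control. With any DKK1 library left out Ccr7 could not be tested and 1 receptor gene was higher. Ccr1l1 and Ccr6, with 8 and 17 control reads and 0 in DKK1, were lost in the same way with any control library left out, which made 3 lower.

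Genes that carry, dampen or end the receptor signal inside the cell mostly fell. Of 27 listed, 22 fell and 5 rose, where 36.1% of all tested genes were called lower and 35.1% higher (median log2 change -2.22, against -0.03 over all tested genes). Rgs2, which shortens G protein signals, stood at 61.7 ± 12.7 in DKK1 and 11294 ± 131 in control, and Grk2, the kinase that desensitises chemokine receptors, at 992 ± 51.6 in DKK1 and 9289 ± 246 in control. Prex1 and Dock2, which activate Rac in moving neutrophils, stood at 830.5 ± 36.5 and 1064 ± 37.4 in DKK1, against 5862 ± 3.10 and 4803 ± 80.8 in control.

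Factors known to act on CC ligand genes or their mRNAs gave 10 of 27 higher, 12 lower and 5 without a call, shares near the 35.1% higher and 36.1% lower of all tested genes. Zc3h12c was among the higher ones through its DKK1 libraries alone. Their median log2 change was 0.03. The mRNA decay factor genes Zfp36 and Zfp36l2, whose proteins bind AU-rich elements such as those of inflammatory mRNAs, fell 24.6-fold and 10.9-fold. Zfp36 stood at 1610.2 ± 289.8 in DKK1 and 39635.5 ± 439 in control. Genes of other mRNA decay factors, chosen after their values were seen, went the other way: Zc3h12a rose 4.27-fold and stood at 2856 ± 471 in DKK1 and 668 ± 36.6 in control, and Zc3h12c had 16125 reads in DKK1 and 4 in control. Nfkbib, an inhibitor of NF-kappaB, rose 32.3-fold and stood at 1525 ± 42.0 in DKK1 and 47.2 ± 4.09 in control. The other NF-kappaB genes of the list, added after their values were seen, did not move alike. The subunit genes Nfkb2, Relb, Rela and Nfkb1 rose 8.16-fold, 4.83-fold, 1.69-fold and 1.51-fold, and Rel did not pass. Nfkbie rose 1.91-fold and Tnfaip3 19.8-fold, Nfkbia did not pass and Nfkbiz was called lower.

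Of 19 genes of proteases that can trim CC ligands and proteoglycans that hold them, 15 could be tested and 4 were too low. They gave 6 higher, 7 lower and 2 not past the threshold, where 35.1% of all tested genes were called higher and 36.1% lower. Of these, 3 of the higher ones entered the test through DKK1 libraries alone and 2 of the lower ones through control libraries alone. Mmp8, neutrophil collagenase, fell 252-fold. Srgn, the proteoglycan core that packs granule contents, fell 8.13-fold and stood at 2724 ± 407 in DKK1 and 22137 ± 293 in control, and Cd44, a receptor for hyaluronan, fell 6.13-fold. Adam17, a sheddase of membrane proteins, rose 5.09-fold and stood at 4119 ± 375 in DKK1 and 809.9 ± 31.6 in control.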

How the data were processed

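Per the file headers, the authors deposited normalized counts, used here as a signal per gene and library; the build is mm10, per the submitters' processing notes. The sources used here name no aligner, counter, annotation or scaling factors. Another 3 value columns match none of the samples and were left out.

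All values (100% within 0.001 reads) were whole multiples of the value of 1 read, and recovered reads were counted per gene. The deposited values are not raw counts, so limma 3.58.1 (R 4.3.3; trend and robust) was fitted to log2(value + 1), which understates changes of low genes, and called 11582 genes. On recovered reads edgeR 4.0.16 called 11400 and DESeq2 1.42.0 10679. Fold changes divide group means of deposited values; against 0 reads the floor was 3 reads over the group, and with 1 to 3 reads pooled reads were divided. Identifiers matched GENCODE M21 without version for 51948 genes (91.3%), whose merged exons gave lengths. Libraries within groups differed by more than sampling noise. The fit was tested on simulated data.

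Genes and lists were chosen with earlier results of these data known. Named are CC ligand and receptor genes, up to 4 members of smallest adjusted p from each other list, and each ligand's 3 nearest profiles; markers are given mainly as counts and sums. Some genes that this rule names are not reported here. Alternatives covered pseudocount, filter, scaling, replicate block, fitting options, count models and leaving out each library.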

Additional observations from a re-analysis of the deposited data

How the results depend on the processing

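The calls of Ccl2, Ccl3, Ccl4, Ccl5, Ccl6 and Ccl22 kept their direction and side of the threshold under all 19 alternatives, and Ccl7 under the 16 in which it could be tested. Of the 10 genes, 5 to 7 were higher and 1 lower, with 5 to 6 higher when a library was left out. Adjusted p-values over the alternatives reached at most 8.28e-05 for Ccl3, 9.09e-06 for Ccl4, 9.25e-06 for Ccl6 and 0.00349 for Ccl22. Ccl9 passed with equal totals (log2 change 0.92), quantile normalization (0.53) and the replicate block (0.39, adjusted p = 0.0369), and without DKK1 library 1 (0.57), and the cause was not tested. Equal totals moved the median of all tested genes by 0.51 on the log2 scale and the share of calls that were higher to 60.8%, against 49.3%. The log2 change of Ccl3 was then 4.52, that of Ccl4 5.95 and that of Ccl6 -6.28.

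Same-numbered libraries of the groups did not deviate together (r of -0.005, 0.007 and 0.017). This cannot exclude a pairing, since the control libraries differed little from each other (chi-square per degree of freedom of 2.15 to 2.21). The block raised the ligands called higher to 7 from 6. Receptor genes called higher ranged from 1 to 3 and those lower from 3 to 5 when a library was left out, and 3 were lower with a filter of 10 in 3 libraries, as genes with few reads then left the test. With a log2 change of at least 1 required, 6 control factors were higher and 11 lower, and 3 signalling genes were higher and 18 lower. Over all 16265 tested genes 4534 were then higher and 4917 lower. Depth limits Ccl17, Ccl22 and Ccl24, which had 0 to 34 reads in any library.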
